A study of Mus musculus with 8 samples.

Results

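The glycolysis, glycogen and phosphagen genes of skeletal muscle were examined after knockdown of *Mytho*, as a set of 37 genes chosen by name: 3 for glucose uptake and phosphorylation, 9 for upper glycolysis, 10 for lower glycolysis and lactate, 12 for glycogen, and 3 for phosphagen and adenylate turnover. All 37 were found by gene symbol, each as 1 of the 22206 gene-level probe sets of the array. The samples were gastrocnemius (GAS) muscle of C57/Bl6j males, collected 3 weeks after an adeno-associated virus (AAV) had been injected into the muscle. The labels give an age of 14 weeks and do not say whether this was at injection or at collection. The study describes the mice of its AAV experiments as adults of about 10 weeks. In the AAV sh-RNA MYTHO group (4 arrays) the virus carried a short hairpin RNA against *Mytho*, and in the AAV sh-RNA scrmb group (4 arrays) it carried a scrambled hairpin, so that both groups received virus and a hairpin. According to the study, the scrambled virus went into the opposite leg of the same mouse. The column names give 4 animal numbers, each once per group, and the letters A to D stand for these mice. The hairpin was driven by a U6 promoter, which is not restricted to muscle fibres, and the RNA came from a piece of whole muscle.

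Muscle fibres burn glucose by glycolysis, in which glucose is phosphorylated, split into triose phosphates and oxidised to pyruvate, and pyruvate is reduced to lactate when it is not passed to the mitochondria. Glycogen is the glucose store of the fibre: it is built by glycogen synthase and branching enzyme and broken down by phosphorylase, and the enzymes of both directions are switched by phosphorylase kinase and by protein phosphatase 1 held on the particle by targeting subunits. Creatine kinase, adenylate kinase and AMP deaminase buffer ATP during contraction, and fast-twitch fibres, which make up most of the mouse GAS, are known for a high capacity for glycolysis and glycogen breakdown.

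The check of the knockdown came first. *Mytho* (listed as D230025D16Rik, chromosome 8, 105225146 to 105253053 in GRCm38.p6) had log2 signals of 11.35, 11.31, 10.78 and 11.05 with the scrambled hairpin (animals A, B, C and D in this order, as in all such lists) against 8.16, 8.20, 8.80 and 8.08 with the MYTHO hairpin. The MYTHO mean was 14.2% of the scrmb mean, with a log2 fold change of -2.81 (SE 0.21, limma adjusted p = 0.00044), and the MYTHO leg was lower in 4 of 4 animals. An exact permutation test (two-sided, 70 ways to relabel 8 arrays) gave p = 0.0286, the smallest it can give. Over the whole table, 6 probe sets, or 0.027%, passed an adjusted p under 0.05, and the median log2 fold change was -0.005. The fast-fibre muscle genes *Myh4*, *Myl1* and *Atp2a1* sat at the ceiling of the scale on all 8 arrays. The arrays were not alike for the energy genes. The scrmb array of animal D was the highest of the 4 scrmb arrays for 22 of the 34 measured members, or 64.7%, whereas it was the highest for 24.8% of all unsaturated probe sets. The MYTHO array of the same animal was the highest of its group for 16 of the 34, or 47.1%, beside 23.4% of all, and the scrmb array of animal A was the lowest of its group for 19, beside 25.5% of all. The counts by direction and by unadjusted p are therefore also given without the scrmb array of D, but not those of groups without overlap.

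No gene of the set passed the test over all probe sets. *Aldoa* (aldolase), *Gapdh* (glyceraldehyde 3-phosphate dehydrogenase) and *Pygm* (muscle glycogen phosphorylase) were saturated at a log2 signal of 19.93 on all 8 arrays, so that no difference could be measured for them. Of the 34 others, 14 were higher and 20 lower in the MYTHO group, with a median log2 fold change of -0.04 and a range from -0.51 to 1.22. The lowest limma adjusted p among them was 0.213. At an unadjusted p under 0.05 there were 5 members, 14.7% of those measured, beside 12.4% of all probe sets. Of these, *Ldhb* and *Gbe1* were higher (2 members, beside 4.81% of all probe sets in that direction) and *Ppp1r3a*, *Gpd1* and *Ampd1* were lower (3 members, beside 7.58%). The groups did not overlap for 4 members, *Gbe1*, *Ppp1r3a*, *Tpi1* and *Ampd1*, which is 11.8% beside 6.46% of all probe sets. Of these, 1 was higher and 3 were lower, beside 2.59% and 3.87% of all probe sets. A difference under 0.5 on the log2 scale in either direction was found for 31 of the 34. For the 29 members without an unadjusted p under 0.05, the 95% confidence intervals reached from -0.88 at the lowest to 1.04 at the highest, the latter for *Hk2*.

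**Figure D1:**
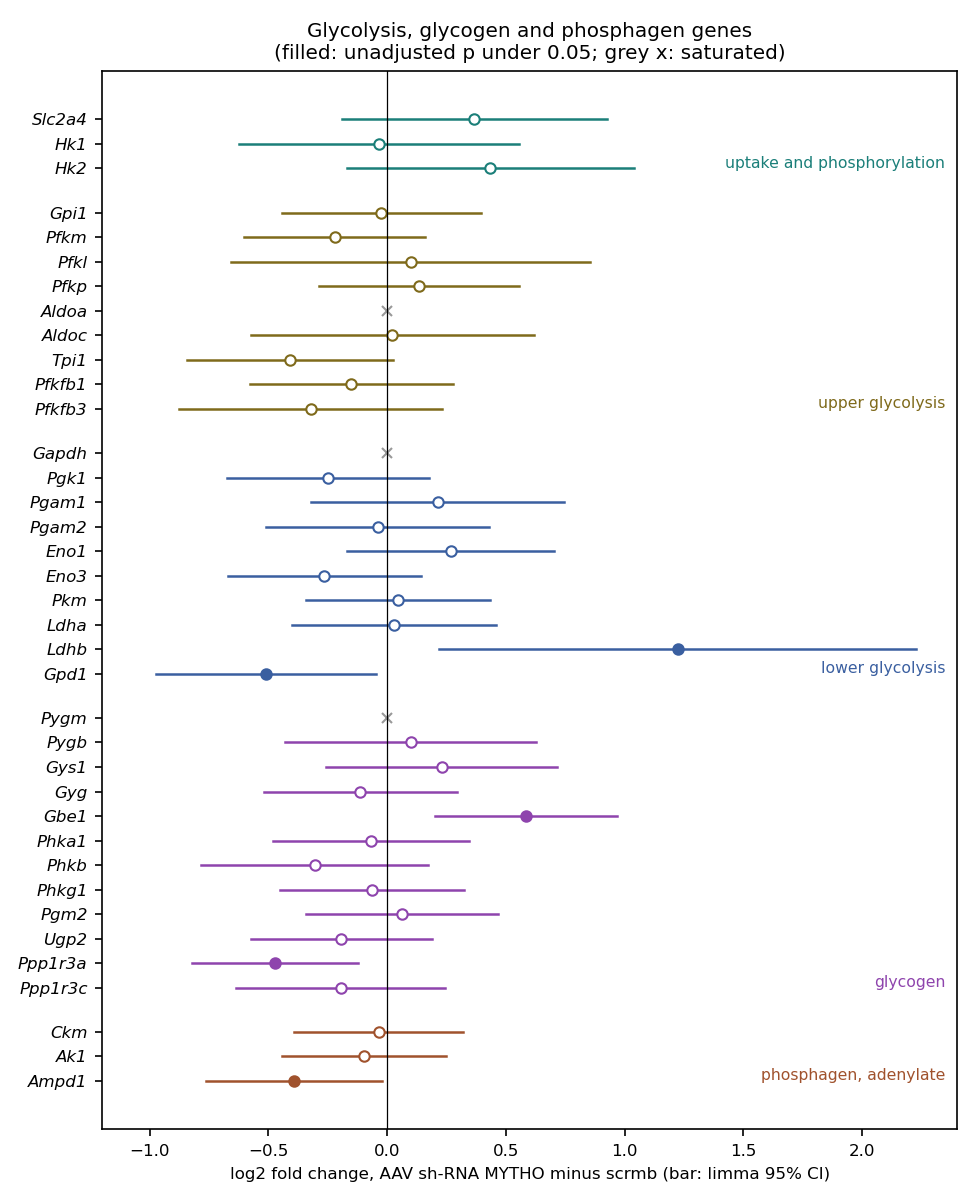
Log2 fold change of each of the 37 genes, AAV sh-RNA MYTHO minus AAV sh-RNA scrmb (x axis), with the limma 95% confidence interval as a bar, grouped by role. Filled points are the 5 genes with an unadjusted p under 0.05, and grey crosses are the 3 saturated genes, which have no measured difference. Most points lie within 0.5 of 0, and *Ldhb* alone lies beyond 1.

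Among the genes that bring glucose into glycolysis, none had an unadjusted p under 0.05. *Slc2a4*, the insulin-responsive glucose transporter GLUT4, had a mean log2 signal of 11.49 ± 0.53 in scrmb and 11.85 ± 0.23 in MYTHO muscle (SD, n = 4 each). *Hk2*, the main hexokinase of muscle, went from 11.95 ± 0.58 to 12.39 ± 0.29 (SD, n = 4 each). Their limma adjusted p values were 0.609 and 0.566. For *Slc2a4* the MYTHO leg was higher in animals B and C, by 1.26 and 0.56, and lower in A and D, at -0.18 and -0.17. For *Hk2* it was higher in A, B and C, by 0.49, 0.73 and 0.63, and lower in D, at -0.11. Without the scrmb array of animal D, their log2 fold changes were 0.56 and 0.72, and each then had an unadjusted p under 0.05, which made 4 higher members (beside 5.65% of all probe sets) and 1 lower member (beside 8.74%). Without the scrmb array of B the log2 fold change of *Slc2a4* was 0.15, and that of *Hk2* was 0.295 at the lowest when an array was left out. *Hk1*, the hexokinase found in most tissues, differed by -0.04 on the log2 scale.

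In upper glycolysis, 3 of 8 measured genes were higher and 5 lower, none with an unadjusted p under 0.05, and the median log2 fold change was -0.09. The group separated for *Tpi1* only, the gene of triose phosphate isomerase, which interconverts the triose phosphates (chromosome 6, 124810586 to 124814158). Its log2 signals were 17.03, 17.13, 17.11 and 17.33 in scrmb and 16.90, 16.25, 16.83 and 16.99 in MYTHO muscle. Every MYTHO array was below every scrmb array, and most of the spread within the MYTHO group came from animal B. The log2 fold change was -0.41 (SE 0.20, 95% confidence interval -0.84 to 0.03, limma adjusted p = 0.435), which leaves the MYTHO mean at 75.4% of the scrmb mean. Without the MYTHO array of B it was -0.24. *Pfkm*, the muscle phosphofructokinase that sets the pace of glycolysis, was at 17.96 ± 0.21 and 17.74 ± 0.12 (SD, n = 4 each), with the MYTHO leg lower in 4 of 4 animals. The log2 fold change of *Pfkm* was -0.22, and -0.12 without the scrmb array of animal D. The other isoforms, *Pfkl* and *Pfkp*, differed by 0.10 and 0.13. *Pfkfb3* and *Pfkfb1*, whose products make and degrade the phosphofructokinase activator fructose 2,6-bisphosphate, differed by -0.32 and -0.15. The isomerase gene *Gpi1* and the minor aldolase gene *Aldoc* differed by -0.03 and 0.02.

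Lower glycolysis held the largest difference of the set, in *Ldhb*. Lactate dehydrogenase is a tetramer of A subunits, the main form of fast muscle, and B subunits, known from heart and slow, oxidative muscle. *Ldhb* (chromosome 6, 142490249 to 142507957) had log2 signals of 10.06, 9.59, 8.68 and 10.00 in scrmb and 10.23, 12.03, 11.27 and 9.70 in MYTHO muscle. The MYTHO arrays of animals A, B and C were above every scrmb array, that of A only just, while that of D lay inside the scrmb range, so the groups overlapped. The means were 9.58 ± 0.64 and 10.81 ± 1.04 (SD, n = 4 each), a 2.34-fold difference. The log2 fold change was 1.22 with an SE of 0.46 and a 95% confidence interval of 0.22 to 2.23, and the limma adjusted p was 0.310. Its unadjusted p of 0.0209 in limma became 0.0711 without the scrmb array of animal C, 0.0699 without the MYTHO array of B and 0.0602 without the MYTHO array of C.

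For *Ldha*, the A subunit gene, the groups were closer, though the difference between the genes was not tested. Its log2 signal was 18.97 ± 0.30 in scrmb and 19.00 ± 0.18 in MYTHO muscle (SD, n = 4 each), a difference of 0.03 with a 95% confidence interval of -0.40 to 0.46. By animal, the MYTHO leg minus the scrmb leg was 0.52, -0.08, -0.12 and -0.20 for *Ldha* and 0.17, 2.44, 2.59 and -0.30 for *Ldhb*. The animals with the largest *Ldhb* difference, B and C, were therefore not those with the largest *Ldha* difference. The *Ldha* signals lie near the ceiling of the scale.

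The windows upstream of the lactate dehydrogenase genes are shown because these genes code for the subunits of the same enzyme. Each is the 250 bases before the RefSeq start of transcription in GRCm38.p6, written 5′ to 3′ in the direction of the gene, and *Ldha* has another RefSeq window that is not shown. Capitals mark matches on either strand to ACGTG (the core that hypoxia-inducible factors bind), CANNTG (the E-box of myogenic and other factors), TATAAA and the MEF2 motif. ACGTG reads CACGT on the other strand, and CACGTG holds both ACGTG and CANNTG.
Ldha, chr7:46845554-46845803, forward strand: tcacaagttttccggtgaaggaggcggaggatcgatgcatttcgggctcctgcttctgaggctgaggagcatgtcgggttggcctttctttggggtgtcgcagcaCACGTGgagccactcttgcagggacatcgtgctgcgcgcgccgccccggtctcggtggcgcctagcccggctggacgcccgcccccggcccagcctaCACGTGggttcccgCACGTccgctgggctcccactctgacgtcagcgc
Ldhb, chr6:142507958-142508207, reverse strand: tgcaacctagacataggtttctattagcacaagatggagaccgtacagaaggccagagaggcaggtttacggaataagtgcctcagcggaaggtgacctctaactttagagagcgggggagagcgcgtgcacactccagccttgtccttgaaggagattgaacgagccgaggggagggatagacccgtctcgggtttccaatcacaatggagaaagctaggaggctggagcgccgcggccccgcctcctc
The *Ldha* window shown holds the CACGTG motif at 2 places and a separate CACGT. The *Ldha* window that is not shown holds no ACGTG or CACGTG, and CANNTG at 2 places. In the *Ldhb* window no letters match any of these motifs. Over the set, 34 genes had at least 1 window. ACGTG was found in 17 of their 53 windows, or 32.1%, against 16.6% of all 32851 RefSeq windows of that length. CANNTG was found in 73.6% against 66.2%, TATAAA in 5.66% against 12.4%, the MEF2 motif in 1.89% against 0.508% and CACGTG in 7.55% against 6.02%. The shares count windows, and those of the same gene, as for *Aldoa*, can overlap and hold the same site. By gene, ACGTG was found in 14 of the 34, without a share over all genes beside it. All are counts of letters and do not show that a factor binds.

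The second gene of this group with an unadjusted p under 0.05 was *Gpd1*, cytosolic glycerol 3-phosphate dehydrogenase, which passes electrons from glycolytic NADH to the glycerol phosphate shuttle and makes the glycerol backbone of fat (chromosome 15, 99717587 to 99725014). Its log2 signals were 13.59, 13.97, 13.77 and 14.37 in scrmb and 13.50, 13.35, 13.11 and 13.70 in MYTHO muscle. Each animal's MYTHO leg was below its scrmb leg, by little in A (-0.09) and by more in B, C and D (-0.62, -0.66 and -0.67), and the groups overlapped. The log2 fold change was -0.51 (SE 0.21, 95% confidence interval -0.97 to -0.05, limma adjusted p = 0.358). Its unadjusted p was over 0.05 after median centring (0.0522) and when the scrmb array of B or D or the MYTHO array of B or C was left out. *Gpd1* is also abundant in fat cells. The mean log2 signal of 7 adipocyte markers ranged from 6.73 to 10.08 in scrmb and from 7.01 to 11.42 in MYTHO muscle, and the MYTHO leg minus the scrmb leg was 2.78, -2.45, -1.17 and 0.55 in animals A to D. Of these 7 markers, 0 had an unadjusted p under 0.05, and their part in the *Gpd1* values was not tested.

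The remaining genes of lower glycolysis had smaller differences. *Eno3*, the enolase of adult muscle, was at 18.46 ± 0.21 in scrmb and 18.19 ± 0.21 in MYTHO muscle, and *Pgk1*, phosphoglycerate kinase, at 16.19 ± 0.18 and 15.94 ± 0.29 (SD, n = 4 each). Both were lower in the MYTHO leg of 4 of 4 animals, and without the scrmb array of D their log2 fold changes went from -0.27 and -0.25 to -0.16 each. *Eno1*, the enolase of most other tissues, whose row also names *Eno1b*, differed by 0.27 in the other direction, and *Pgam1*, the non-muscle phosphoglycerate mutase, by 0.21. *Pgam2*, the muscle mutase, and *Pkm*, pyruvate kinase, differed by -0.04 and 0.05.

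**Figure D2:**
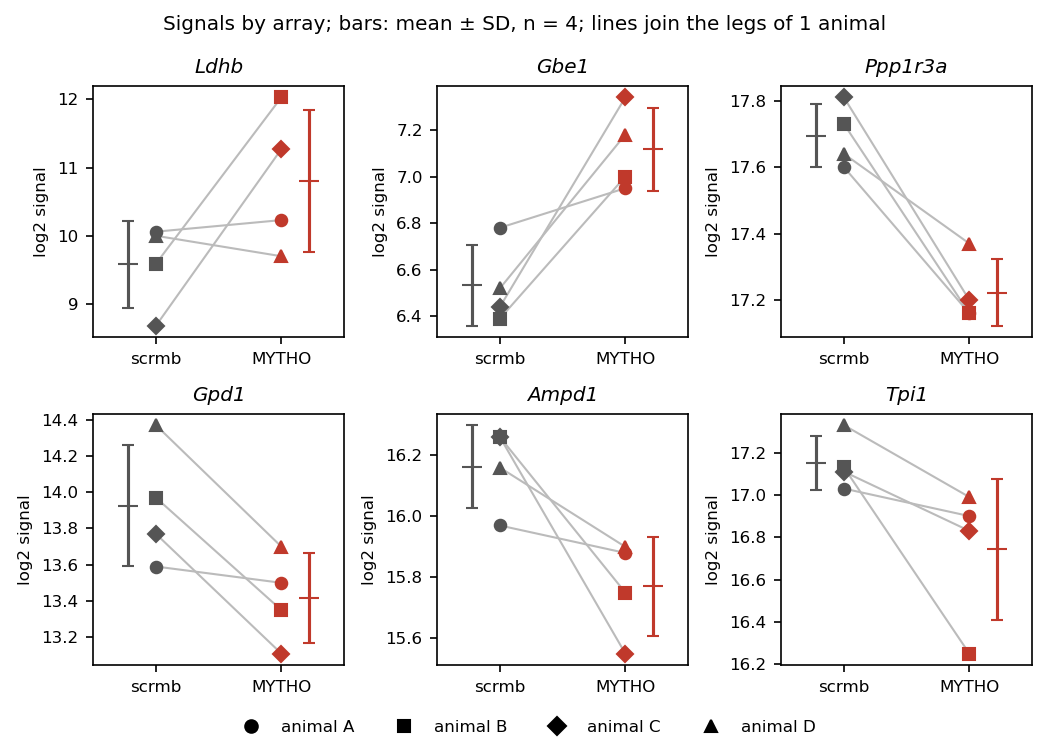
Log2 signal (y axis) of the 6 genes with an unadjusted p under 0.05 or without overlap, for the scrmb (grey) and MYTHO (red) arrays. Marker shape gives the animal, lines join the legs of the same animal, and the bars are the mean ± SD of 4 arrays. *Gbe1*, *Ppp1r3a*, *Ampd1* and *Tpi1* show no overlap, while for *Ldhb* the MYTHO arrays of A, B and C lie above the scrmb arrays and that of D lies among them.

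Among the glycogen genes, 4 of 11 measured were higher and 7 lower, with a median log2 fold change of -0.07. The gene with the smallest p of the set was *Gbe1*, the branching enzyme that gives glycogen its tree-like form (chromosome 16, 70313949 to 70569720). Its log2 signals were 6.78, 6.39, 6.44 and 6.52 in scrmb and 6.95, 7.0, 7.34 and 7.18 in MYTHO muscle. The scrmb signals lie close to the array medians of 6.39 to 6.47, so the probe set is low on the scale of the array. All MYTHO arrays were above all scrmb arrays, and the differences by animal were 0.17, 0.61, 0.90 and 0.66. The MYTHO mean was 1.5-fold the scrmb mean, with a 95% confidence interval of 0.20 to 0.97 on the log2 scale around 0.585, an unadjusted limma p of 0.00627 and an adjusted p of 0.213.

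*Ppp1r3a*, the targeting subunit that holds protein phosphatase 1 on glycogen in striated muscle, differed in the other direction (chromosome 6, 14713822 to 14755274). Its log2 signals were 17.60, 17.73, 17.81 and 17.64 in the scrmb arrays and 17.16, 17.16, 17.20 and 17.37 in the MYTHO arrays. The scrmb arrays all lay above the MYTHO arrays. The MYTHO mean was 72.1% of the scrmb mean, with a log2 fold change of -0.47 (SE 0.16, 95% confidence interval -0.82 to -0.12, limma adjusted p = 0.265). *Gbe1* and *Ppp1r3a* kept an unadjusted p under 0.05 in all 18 alternative analyses, in ranges of 0.0039 to 0.0204 and 0.0007 to 0.0323. Their adjusted p stayed above 0.05, at 0.130 to 0.430 and 0.0680 to 0.475. These genes had the smallest unadjusted p values of the set in the main fit, and the alternatives reuse the same arrays. The alternatives are therefore not independent results for them. The share of all probe sets that stayed under 0.05 throughout is not given beside them. In whole muscle, fewer cells of a type and less RNA per cell cannot be told apart for any of these values.

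The windows upstream of these 2 glycogen genes, in the same format, are given because their groups separated in opposite directions.
Gbe1, chr16:70313699-70313948, forward strand: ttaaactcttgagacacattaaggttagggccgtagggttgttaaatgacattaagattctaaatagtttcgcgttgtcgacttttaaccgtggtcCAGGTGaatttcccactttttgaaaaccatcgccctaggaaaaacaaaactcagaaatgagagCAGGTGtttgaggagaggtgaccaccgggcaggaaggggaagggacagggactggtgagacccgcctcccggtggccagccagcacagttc
Ppp1r3a, chr6:14755275-14755524, reverse strand: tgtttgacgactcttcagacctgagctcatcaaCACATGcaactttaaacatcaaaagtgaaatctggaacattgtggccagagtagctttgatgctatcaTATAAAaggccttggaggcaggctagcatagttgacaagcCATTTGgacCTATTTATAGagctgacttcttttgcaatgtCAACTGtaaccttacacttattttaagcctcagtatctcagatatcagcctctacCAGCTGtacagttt
The *Gbe1* window holds CANNTG only. The *Ppp1r3a* window holds the MEF2 motif, named for a factor of muscle gene transcription, and it is the only window of the set that does. It also has TATAAA on each strand, once inside the MEF2 match, and CANNTG.

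The other regulators and enzymes of glycogen gave smaller values. *Ppp1r3c*, a targeting subunit of the same family, was at 17.64 ± 0.27 and 17.45 ± 0.26 (SD, n = 4 each), lower in the MYTHO leg of 4 of 4 animals, with a log2 fold change of -0.20 that was -0.09 without the MYTHO array of A. *Phkb*, a regulatory subunit of phosphorylase kinase, differed by -0.31, with a difference between the legs of -1.09 in animal B and of 0.10, -0.19 and -0.04 in A, C and D. The subunit genes *Phka1* and *Phkg1* differed by -0.07 each. *Gys1*, muscle glycogen synthase, differed by 0.23, and *Gyg*, glycogenin, which starts the glycogen chain, by -0.11. *Ugp2*, which makes UDP-glucose, differed by -0.19, and *Pygb*, the brain form of phosphorylase, by 0.10. The row called *Pgm2* in the table carries the Entrez gene that RefSeq names *Pgm1* in GRCm38.p6, a phosphoglucomutase, and differed by 0.06.

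Of the 3 phosphagen and adenylate genes, 1 had an unadjusted p under 0.05. *Ampd1*, the muscle AMP deaminase, which removes AMP during hard contraction, had log2 signals of 15.97, 16.26, 16.26 and 16.16 in scrmb and 15.88, 15.75, 15.55 and 15.90 in MYTHO muscle (chromosome 3, 103073897 to 103099720). The groups did not overlap, although the MYTHO array of D came close to the scrmb array of A. The log2 fold change was -0.39 (SE 0.17, 95% confidence interval -0.76 to -0.02, limma adjusted p = 0.378), with an unadjusted limma p of 0.0401 that became 0.0689 with the animal as a block. It was also over 0.05 after median centring (0.0705) and without the scrmb array of B, C or D or the MYTHO array of B or C. *Ckm*, muscle creatine kinase, was at 18.15 ± 0.16 and 18.12 ± 0.04, and *Ak1*, adenylate kinase, at 18.54 ± 0.07 and 18.44 ± 0.10 (SD, n = 4 each), differences of -0.04 and -0.10 that were within the spread between arrays.

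The set was also followed within each mouse. The MYTHO leg was higher than the scrmb leg for 17, 11, 13 and 5 of the 34 genes in animals A, B, C and D, and the mean difference over the set was 0.09, 0.03, 0.05 and -0.22 on the log2 scale. The MYTHO leg was lower in all 4 animals for 8 genes, *Tpi1*, *Pfkm*, *Gpd1*, *Eno3*, *Pgk1*, *Ppp1r3a*, *Ppp1r3c* and *Ampd1*, which is 23.5% beside 10.8% of all probe sets. It was higher in all 4 for *Gbe1* only, 2.94% beside 8.94%. Over animals A, B and C alone, 9 genes (the same 8 and *Ugp2*) were lower in every animal, 26.5% beside 18.5% of all probe sets, and 4 were higher (*Gbe1*, *Hk2*, *Pfkl* and *Ldhb*), 11.8% beside 16.8%. The mean over the 34 genes was 14.20 in the scrmb array of animal D and 13.88 to 13.97 in the other scrmb arrays, while the MYTHO arrays lay between 13.93 and 14.01.

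**Figure D3:**
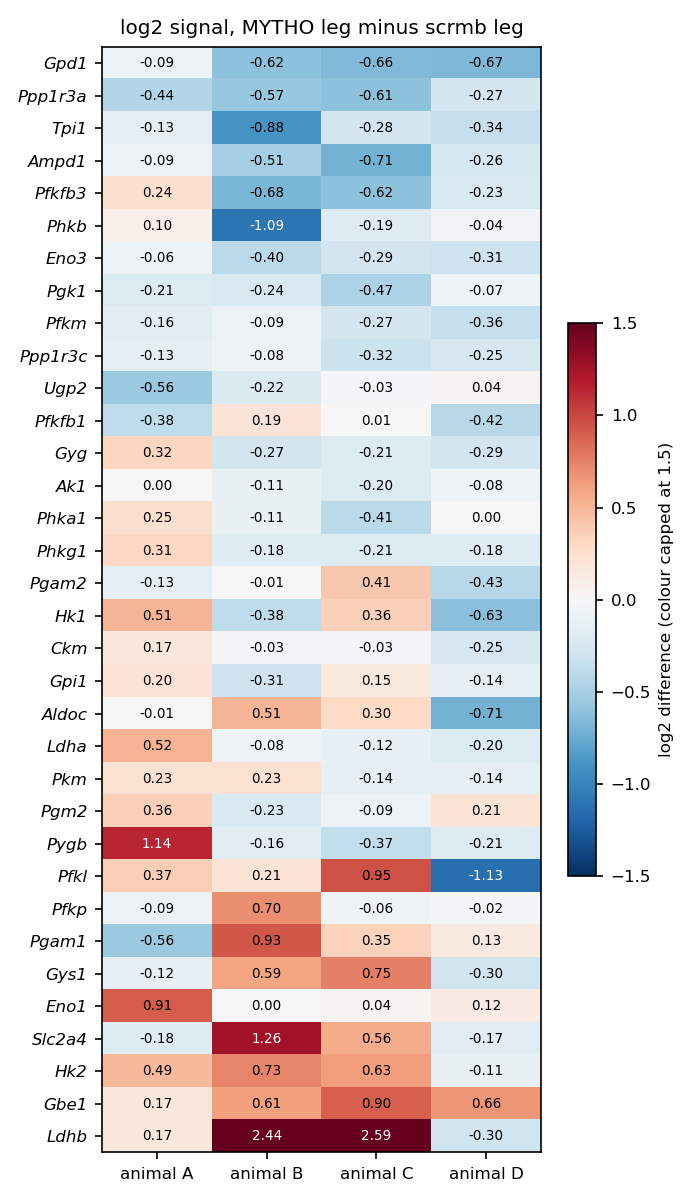
Log2 signal of the MYTHO leg minus the scrmb leg for the 34 measured genes (rows, ordered by log2 fold change) in animals A to D (columns), with the value printed in each cell and the colour limited to 1.5 on either side of 0. The column of animal D is negative for most genes, and the row of *Ldhb* is above 2 in animals B and C.

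The direction of the differences was also counted by how bright the probe set was. A log2 signal of 14, chosen after the values were seen, was used to sort probe sets by their place on the scale of the array, which also depends on the probes and is not a measure of transcript abundance. Of the 20 members at 14 or above, 16 were lower in MYTHO muscle, or 80%, against 46.0% of all 630 unsaturated probe sets in that class. Of the 14 members under 14, 10 were higher, or 71.4%, against 49.2% of the 21558 probe sets there. After quantile normalization of the deposited signals, 17 of the 20 were lower (beside 53.3% of all in that class) and 10 of the 14 higher (beside 53.0%). After median centring 13 of the 20 were lower (beside 40.2%) and 11 of the 14 higher (beside 54.9%). The first count fell when the scrmb array of animal D was left out. The MYTHO array of D, also often the highest of its group, was kept in that fit. There, 11 of the 20 members were lower, or 55%, beside 45.7% of all probe sets in that class. Of the 14 others, 10 were higher, beside 49.0% of all in their class. Over the whole set 19 genes were then higher and 15 lower, with a median of 0.03.

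**Figure D4:**
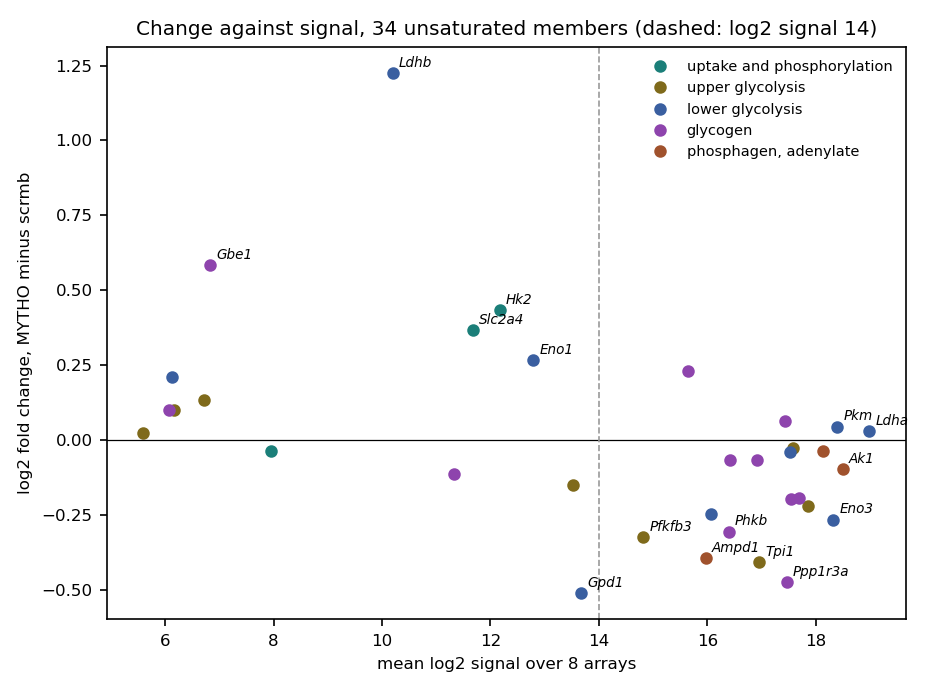
Log2 fold change, MYTHO minus scrmb (y axis), against the mean log2 signal over 8 arrays (x axis) for the 34 measured genes, coloured by role, with a dashed line at a log2 signal of 14. To the right of the line 16 of 20 points lie below 0, and to the left 10 of 14 lie above 0.

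Because *Ldhb* is a gene of oxidative muscle, its values are set beside those of 8 slow-fibre markers (*Myh7*, *Myl2*, *Myl3*, *Tnnt1*, *Tnni1*, *Tnnc1*, *Tpm3* and *Atp2a2*). All 8 had a higher mean in MYTHO muscle, 7 with an unadjusted p under 0.05, beside 4.81% of all probe sets in that direction, and 0 with an adjusted p under 0.05. Markers of the same cell or fibre type can move together, so the calls within this list, as within the endothelial list below, are not independent results. The mean log2 signal of the 8 ranged from 11.61 to 13.70 in the scrmb arrays and from 11.68 to 14.88 in the MYTHO arrays. The MYTHO leg minus the scrmb leg was 1.18, 2.52, 2.87 and 0.08 in animals A to D, so the animals B and C had the largest difference both for the list and for *Ldhb*. By single array the orders differed. The MYTHO array of A had the highest list mean, 14.88, but an *Ldhb* signal of 10.23, against 12.03 and 11.27 in B and C. The scrmb array of D had the lowest list mean, 11.61, but an *Ldhb* signal of 10.00, against 8.68 in the scrmb array of C. The endothelial list was higher as well, with 7 of 7 genes above scrmb by group mean, 2 of them with an unadjusted p under 0.05, beside the same 4.81%. Its mean log2 signal was 9.42 to 9.80 in scrmb and 10.00 to 10.13 in MYTHO muscle, with differences of 0.20, 0.47, 0.62 and 0.39 by animal. The part of slow-fibre or endothelial RNA in the values of *Ldhb*, *Hk2* and *Slc2a4* was not tested. Of the 9 measured fast-fibre markers, 1 had an unadjusted p under 0.05 (*Myh1*, higher), and none of the blood, macrophage or Schwann cell markers did.

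**Figure D5:**
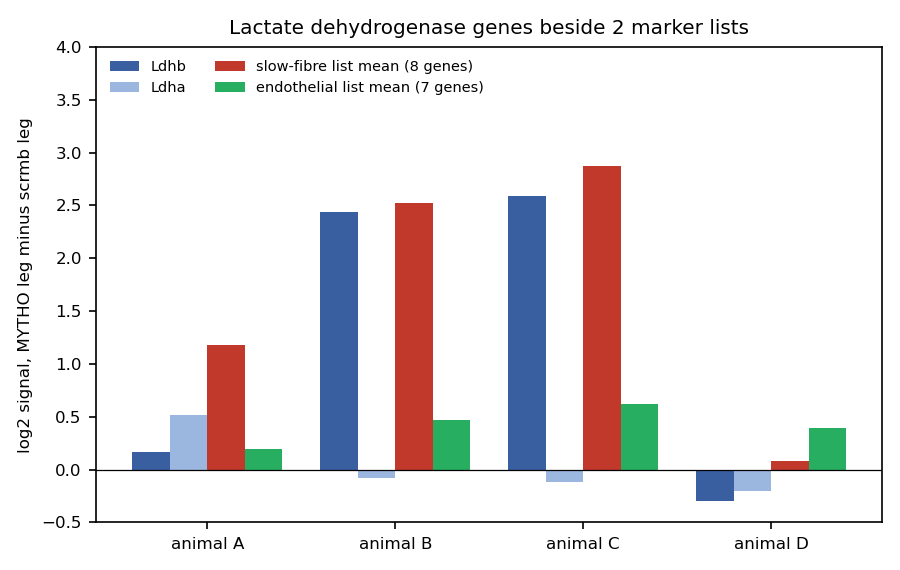
Log2 signal of the MYTHO leg minus the scrmb leg (y axis) in animals A to D, for *Ldhb*, *Ldha*, the mean of 8 slow-fibre markers and the mean of 7 endothelial markers. The bars of *Ldhb* and of the slow-fibre list are tallest in animals B and C and lowest in D, and those of *Ldha* are highest in A.

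The neighbouring reactions were covered by 80 further genes, among them other isoforms, pyruvate dehydrogenase and its kinases, lactate carriers, gluconeogenesis, the pentose phosphate pathway and further glycogen and nucleotide genes. Of these, 42 were higher and 38 lower, 4 had an unadjusted p under 0.05 (5%, beside 12.4% of all probe sets) and 0 an adjusted p under 0.05. Without the scrmb array of animal D, 10 of the 80 had an unadjusted p under 0.05, or 12.5%, beside 14.4% of all probe sets. *Pfkfb2*, another maker and degrader of fructose 2,6-bisphosphate, whose row also names *C4bp-ps1*, had log2 signals of 9.78, 9.28, 9.14 and 9.29 in the scrmb arrays and 9.97, 10.54, 10.11 and 9.84 in the MYTHO arrays, with no overlap and a limma adjusted p of 0.199. *Fbp1*, a fructose bisphosphatase that runs opposite to phosphofructokinase, was at 5.36, 5.22, 5.24 and 5.02 and at 4.77, 4.81, 4.76 and 4.52, also with no overlap (adjusted p = 0.264). Its signals are low on the scale of the array. *Ampd3*, the AMP deaminase of blood and other tissues, was at 10.75, 9.95, 8.87 and 10.56 in scrmb and 11.70, 11.37, 10.87 and 10.48 in MYTHO muscle, a log2 fold change of 1.07 (adjusted p = 0.292) that was 0.68 without the scrmb array of C. It was higher in animals A, B and C and at -0.08 in D, and *Ampd1*, the muscle isoform, was lower in all 4. *Pgd*, phosphogluconate dehydrogenase of the pentose phosphate pathway, was at 8.40, 8.78, 8.40 and 8.60 and at 9.46, 9.27, 9.0 and 8.68, higher in 4 of 4 animals (adjusted p = 0.302). Without the MYTHO array of animal A, the unadjusted limma p of *Ampd3* was 0.0548 and that of *Pgd* 0.0643.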

How the data were processed

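Total RNA of 8 GAS samples was hybridised to Clariom S Mouse arrays, whose short probes form gene-level probe sets. Per the file headers, the log2 signals that the authors deposited were made with the Transcriptome Analysis Console version 4.0.1 by SST-RMA, with annotation release 36 on mm10. The steps of SST-RMA include a background correction, quantile normalization and median polish. Values carry 2 decimals and end at a ceiling of 19.93, where a probe set is saturated and its difference unmeasured. Deposited group averages, folds, p-values and false discovery rates were not used.

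Here, MYTHO and scrmb were compared in R version 4.3.3 with limma 3.58.1 (lmFit and eBayes, two-sided, all 22206 probe sets, Benjamini-Hochberg), without a block, since the study describes no pairing term. The fit was tested on simulated data. A log2 fold change is MYTHO minus scrmb. Signals of different probe sets were sorted into classes at 1 point of the scale and not otherwise compared. Precision is limited by 4 arrays per group.

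Same-numbered columns are the legs of the same animal, so the numbers pair the arrays by design. The deviations of the legs from their group means correlated at 0.00266, -0.00145, 0.135 and 0.0871 across probe sets in animals A to D. A fit with the animal as a block was an alternative, beside scaling, filters, eBayes options, array weights and leaving out each array.

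The genes and lists were chosen with earlier results of these data known. Every member is named, with the value of each array where its unadjusted p was under 0.05 or its groups did not overlap, and further pathway genes are named by the same 2 criteria. Gene positions and upstream windows come from RefSeq, GRCm38.p6, the assembly of mm10. *Slc2a4*, *Gpd1* and *Ampd1* had no window in the table used.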

Additional observations from a re-analysis of the deposited data

Results flagged for a closer look

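Among 78 groups of 4 arrays tested, 3 had an array far from the rest, and chance gives about 1 in 20. *Pgam1*, the non-muscle phosphoglycerate mutase, had a log2 signal of 6.59 in the scrmb array of animal A against 5.79 to 5.86 in the other scrmb arrays, a gap of 0.912 of the whole range. *Phkb*, a phosphorylase kinase subunit, was at 15.65 in the MYTHO array of animal B against 16.38 to 16.50 (0.859 of the range). *Mytho* (D230025D16Rik) was at 8.80 in the MYTHO array of animal C against 8.08 to 8.20 (0.833 of the range), still below every scrmb array.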

How the results depend on the processing

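No member had an adjusted p under 0.05 in the 18 alternatives. With the animal as a replicate block, 2 members were higher and 2 lower at an unadjusted p under 0.05, 11.8% of those measured beside 12.6% of all probe sets, *Ampd1* being the call lost, and the median stayed at -0.0375. At the 2-fold threshold of the study 1 member passed, *Ldhb*, 2.94% beside 1.5% of all probe sets. After median centring 1 member was lower instead of 3, beside 6.34% of all probe sets, and the median was 0.0025. Leaving out each array gave 1 to 4 higher members, 1 to 4 lower members and a median from -0.0954 to 0.0267, while 9.50% (without the scrmb array of C) to 14.4% (without the scrmb array of D) of all probe sets passed. In all, 2 to 6 members passed, or 5.88% to 17.6%. There were 4 higher without the scrmb array of animal D and 1 without the scrmb array of C or the MYTHO array of B or C. There were 4 lower without the MYTHO array of D, and 1 without the scrmb array of B or D or the MYTHO array of B or C. Of the 80 further pathway genes, 9 had an unadjusted p under 0.05 with trend and robust eBayes (11.2% beside 12.8% of all probe sets), and 4 to 10 when an array was left out. The count was 8 without the scrmb array of A (10% beside 11.5%), 10 without the scrmb array of D (12.5% beside 14.4%) and 7 without the MYTHO array of D (8.75% beside 11.9%). *Mytho* stayed between -2.98 and -2.74 when an array was left out.

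Only members without an unadjusted p under 0.05 turned sign. *Ldha* was -0.13 after quantile normalization, *Hk1*, *Gpi1* and *Ckm* were 0.005, 0.015 and 0.005 after median centring, and *Pfkl* was -0.0237 with array weights. Leaving out an array moved *Hk1* from -0.261 to 0.149, *Pgam2* from -0.236 to 0.0875, *Pkm* from -0.0192 to 0.144, *Ldha* from -0.0825 to 0.158, *Pygb* from -0.0967 to 0.223, *Pgm2* from -0.0342 to 0.147, *Aldoc* from -0.198 to 0.146, *Pfkl* from -0.13 to 0.423, *Gpi1* from -0.104 to 0.0925, *Phka1* from -0.163 to 0.005, *Phkg1* from -0.164 to 0.0158, *Ckm* from -0.0858 to 0.0375 and *Pfkp* from -0.015 to 0.215. Among further values without a call, *Phkb* was -0.11 and *Pgam1* 0.03 without the MYTHO array of B, *Pfkfb3* -0.13 without the MYTHO array of C, *Eno1* 0.14 without the MYTHO array of A and *Gys1* 0.05 without the scrmb array of C. Leaving out an array gave -0.318 to -0.0933 for *Ppp1r3c*, -0.272 to -0.0683 for *Pfkfb1*, -0.271 to -0.107 for *Ugp2*, -0.205 to -0.0183 for *Gyg* and -0.137 to -0.06 for *Ak1*. For all these shifts, the cause was not tested. Of 678 values of single genes in the alternatives, 31 changed sign and 2 were exactly 0. An unadjusted p under 0.05 was lost in 17 of them, for *Ldhb*, *Gpd1*, *Ampd1*, *Ampd3* and *Pgd*, and gained in 5, for *Tpi1* after quantile normalization, with trend and robust eBayes and without the MYTHO array of D, and for *Hk2* and *Slc2a4* without the scrmb array of D. Keeping the upper 50% of probe sets by signal left 30 members.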
